A study of Caenorhabditis elegans with 4 samples.

Results

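The aminoacyl-tRNA synthetase genes of the nematode Caenorhabditis elegans were examined for binding of the chromatin protein CFP-1 and for trimethylation of histone H3 at lysine 4 (H3K4me3). Members were the protein-coding genes whose symbol is 1 letter, the one-letter code of an amino acid, followed by ars- and 1 or 2. There were 32 such genes among the 19971 protein-coding genes of the 6 nuclear chromosomes in the gene table, 20 with the suffix -1 and 12 with the suffix -2, and they covered all 20 amino acids. A further symbol that fitted, cars-2, is listed as a pseudogene and was left out. The data were 4 lists of ChIP-seq peaks from whole late embryos of strain JA1597, aged for 3.5 hours after collection. In this strain a transgene inserted at a single site expresses cfp-1 fused to gfp from the dpy-30 promoter, and all 4 lists share it; whether the endogenous cfp-1 was removed is not given in the labels. Anti-GFP serum, for CFP-1::GFP, gave 2 lists, named RC03 and RC04, and an anti-H3K4me3 antibody gave 2 more under the same names. The labels do not say that RC03 and RC04 are separate cultures, and their spread may be technical.

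Aminoacyl-tRNA synthetases join each amino acid to its tRNA, the step that gives the genetic code its meaning, and every growing cell needs them. Translation runs both in the cytosol and in mitochondria, and many amino acids have a separate nuclear gene for each compartment, while others use 1 gene for both. In worm gene names the suffix -1 usually marks the cytosolic enzyme and -2 the mitochondrial one, but not always: aars-2 encodes the cytosolic alanine enzyme. The enzymes fall into classes I and II, which have unrelated catalytic folds. CFP-1 is a CXXC zinc finger protein that binds CpG-containing DNA as part of the COMPASS complex, which writes H3K4me3, a mark typical of the promoters of transcribed genes.

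The lists held 9216 (RC03) and 9256 (RC04) CFP-1 peaks and 11357 and 12343 H3K4me3 peaks, with no read counts, so the depth behind a peak is unknown and a missing peak is not the absence of binding. The score of a peak is the authors', on a −log10 scale of a p-value or q-value, and is given here beside its percentile rank within its own list. Peak positions are in build ce10. Gene ends came from a table of assembly WBcel235, whose coordinates differ slightly from ce10, and the table gives no strand. The transcript start of a gene is therefore known only as 1 of its 2 ends, and a gene was counted as called when both lists of an antibody had a peak within 500 bp of the same end. A call at either end is an upper limit for a call at the start. The peak names carry the letters L3, used for a larval stage, but the stage was taken from the labels as late embryo, and peak lists hold no expression by which the stage could be checked. With 2 lists per antibody and no replicate of a gene, the comparisons below have no test. No anti-GFP list from worms without GFP was analysed here, so the part of other anti-GFP signal in the CFP-1 calls was not tested.

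Most synthetase genes carried CFP-1 and the mark together. CFP-1 was called at 20 of the 32 genes (62.5%), where 25.9% of all protein-coding genes were called by the same rule. H3K4me3 was called at 23 of 32 (71.9%), against 30.6% of all genes. Both antibodies at the same end were called at 20 of 32 (62.5%), against 23.0% of all genes. H3K4me3 thus accompanied CFP-1 at all 20 members with CFP-1, a near-rule for genes at large, since 88.9% of the 5177 genes with CFP-1 had the mark at the same end. A further 3 genes, fars-1, rars-1 and sars-1, had the mark without CFP-1, or 13.0% of the members with the mark, against 24.3% of all genes with it. No member had CFP-1 without the mark at either end, which was the case for 10.7% of all genes with CFP-1. Neither antibody was called at the other 9. The totals of the single lists differed little: CFP-1 peaks lay at 21 members in RC03 and 21 in RC04 (65.6% ± 0 SD, n = 2), and H3K4me3 peaks at 24 and 23 (73.4% ± 2.21 SD, n = 2). The SD of 0 compares totals and not genes, since pars-1 had CFP-1 in RC03 alone and sars-1 in RC04 alone. The same single-list shares over all genes were 28.0% and 28.2% in the CFP-1 lists and 32.5% and 32.4% in the H3K4me3 lists. No member had CFP-1 at both of its ends (4.17% of all genes did), nor both antibodies there (3.39% of all genes), and for the 20 members with CFP-1 a call at the start depends on the strand. H3K4me3 was called at both ends of aars-2, iars-1, nars-1 and sars-2, 4 of the 32 members, against 7.4% of all genes. Among genes with the mark, both ends were called at 4 of 23 members and at 1477 of 6107 genes. A peak of the mark lies within 500 bp of the start of these 4 members whatever their strand. At 1 end of iars-1 that peak was 470 (RC03) and 492 bp (RC04) outside the gene, and at 1 end of nars-1 it scored only 3.66 and 3.62.

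**Figure D1:**
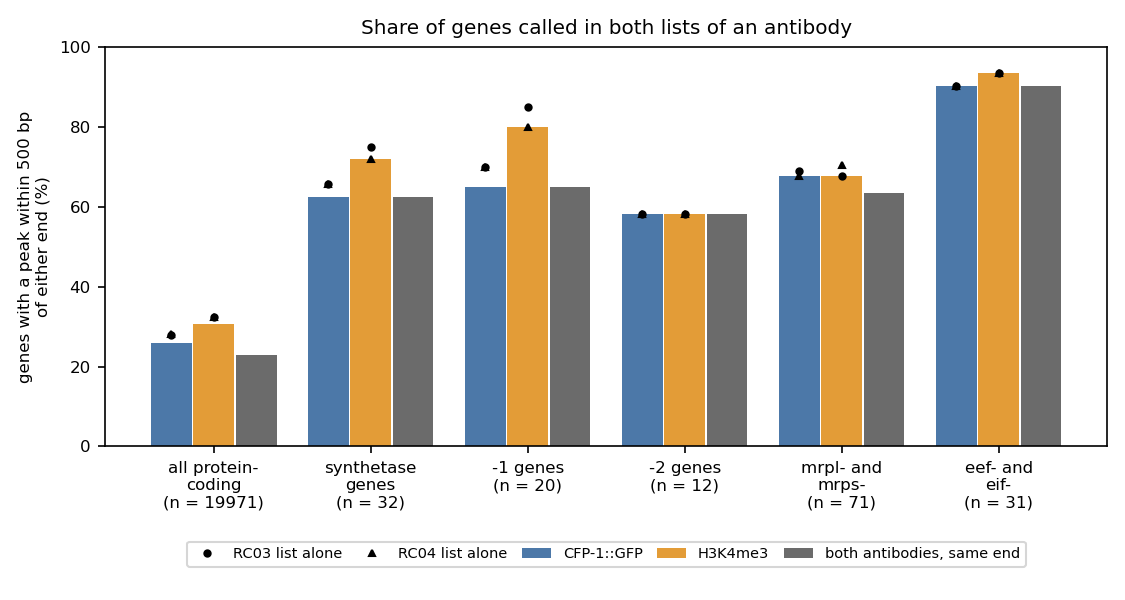
Percent of genes (vertical axis) with a peak within 500 bp of either gene end, for all protein-coding genes, the synthetase genes and other genes of translation. Bars count genes called in both lists of an antibody, circles and triangles the RC03 and RC04 lists alone; the synthetase bars stand at 62.5% (CFP-1) and 71.9% (H3K4me3), against 25.9% and 30.6% for all genes.

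The other genes of protein synthesis give the setting for these shares. Of the 31 genes named eef- or eif-, the cytosolic elongation and initiation factors, 28 were called with both antibodies (90.3%). All 6 eef- genes were among them, with CFP-1 scores from 90.2 at eef-1A.2 in RC04 to 206.2 at eef-1B.2 in RC04. Of the 71 mrpl- and mrps- genes, which encode proteins of the mitochondrial ribosome, 45 had both (63.4%), close to the 62.5% of the synthetases. The genes gcn-1, gcn-2 and atf-4, of the response to uncharged tRNA, were all called with both. The phenylalanine enzyme of the cytosol has a subunit encoded by fars-3, outside the rule, and this gene had CFP-1 scores of 31.7 in RC03 and 30.9 in RC04 and H3K4me3 scores of 68.1 and 51.7. Its partner subunit gene fars-1, a member, had H3K4me3 scores of 72.2 and 69.0 and no CFP-1 call. The gene glp-4, which encodes the valine enzyme VARS-2 under another symbol and was looked up after the other values were known, had CFP-1 scores of 39.5 and 34.9 and H3K4me3 scores of 51.7 and 60.6.

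The suffix did not split the family into called and uncalled genes. Both antibodies were called at 13 of the 20 -1 genes (65.0%) and at 7 of the 12 -2 genes (58.3%), each above the 23.0% of all genes. H3K4me3 alone differed more, with 16 of 20 (80.0%) and 7 of 12 (58.3%), since the 3 genes with the mark and no CFP-1 call all have the suffix -1. The -1 genes were themselves uneven. Of the 8 that have no partner with a -2 symbol in the table, 7 had both antibodies (87.5%). Of the 12 with such a partner, 6 did (50.0%). The genes called without such a partner were cars-1, gars-1, hars-1, kars-1, qars-1, tars-1 and vars-1, and the exception was wars-1, for tryptophan. Pairing went by symbol, so vars-1 stands here although glp-4 encodes VARS-2. By enzyme class, 9 of the 16 class I genes (56.2%) and 11 of the 16 class II genes (68.8%) had both.

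Within the 12 pairs of a -1 and a -2 symbol for the same amino acid, 6 of the -1 genes and 7 of the -2 genes were called with both antibodies. How many pairs would split with no relation between partners was not counted. The valine genes vars-1 and glp-4, each called with both antibodies, are not among these pairs. Both genes were called with both antibodies in 2 pairs, alanine and methionine, and neither gene in 1 pair, arginine. The -1 gene alone was called in 4 pairs, aspartate, isoleucine, leucine and asparagine. The -2 gene alone was called in 5 pairs, glutamate, phenylalanine, proline, serine and tyrosine. Some of these states rest on the cut-off. The mark was called at fars-1, rars-1 and sars-1, and fars-1 and rars-1 were called with both antibodies when 1000 bp was allowed. At mars-1, for methionine in the cytosol, CFP-1 scored 56.5 in RC03 and 78.1 in RC04, and at mars-2, its mitochondrial counterpart, 66.4 and 72.5. H3K4me3 scored 45.1 and 48.6 at mars-1 and 81.7 and 65.0 at mars-2. Thus CFP-1 ranges overlapped between the 2 methionine genes, and the mark was higher at mars-2 in both lists. At the alanine genes CFP-1 scored 56.0 and 58.1 at aars-1 and 34.0 and 58.3 at aars-2, and H3K4me3 51.1 and 41.1 at aars-1 and 46.5 and 43.6 at aars-2. For alanine neither antibody separated the 2 genes beyond the spread of the lists.

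Among called genes, the -2 genes had somewhat higher CFP-1 ranks, by an amount that depended on the distance allowed. Their median percentile rank was 79.9 in RC03 and 84.1 in RC04, against 71.8 and 74.9 at the -1 genes, a difference (-1 minus -2) of -8.63 ± 0.797 percentile points (SD, n = 2). With peaks allowed up to 250 bp or 1000 bp from an end, the difference of the medians was -1.9 and -3.7, compared with -10.7 at 500 bp when ranks are first averaged over the lists. The 7 called -2 genes ran from a mean rank of 73.8 to 96.3 and the 13 called -1 genes from 40.8 to 90.4, so the groups overlapped. For H3K4me3 the difference was -4.13 ± 2.09 percentile points (SD, n = 2), with medians of 86.0 and 88.5 at the -1 genes and 91.6 and 91.2 at the -2 genes. Median widths of the CFP-1 peaks were 337 and 332 bp at -1 genes and 371 and 347 bp at -2 genes, and those of H3K4me3 were 1146 and 1150 bp against 1200 and 1205 bp. Width differences changed sign with the processing: for CFP-1 the median of the -1 genes was 33.5 bp above that of the -2 genes at 250 bp, and for H3K4me3 229.5 bp above it without the RC03 list.

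Over all called members, scores were close to those of all called genes. Their CFP-1 scores had medians of 44.0 (RC03) and 56.4 (RC04), a median percentile rank of 79.0, and the 5177 genes called in all had medians of 42.3 and 44.7 and a rank of 77.7. The 23 members with H3K4me3 had median scores of 57.6 and 58.6, a rank of 87.4, against 51.6 and 49.6 and a rank of 84.9 over the 6107 genes called. In contrast, the eef- and eif- genes had median ranks of 90.6 for CFP-1 and 89.9 for H3K4me3. CFP-1 peaks of members had a median width of 360.2 bp (362.5 bp over all called genes), and H3K4me3 peaks one of 1196 bp (1057 bp over all). No member reached the broad H3K4me3 of the elongation factors, whose median width was 2468 bp; the widest marks at members were those of kars-1, with 1500 bp in RC03 and 1570 bp in RC04, and mars-1, with 1450 and 1578 bp.

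The strongest CFP-1 peak of the family lay at ears-2, which encodes the mitochondrial glutamate enzyme. It scored 134.4 in RC03 and 140.1 in RC04, at chromosome IV positions 390259 to 390650 and 390321 to 390667, and its H3K4me3 scored 55.2 and 58.8. Its CFP-1 score was the highest of all members in each list, while its H3K4me3 was near the members' median. Next came tars-1, for threonine, with CFP-1 scores of 79.0 and 104.4 at II positions 11694265 to 11694785 and 11694380 to 11694812, and H3K4me3 scores of 60.1 and 65.8. The lysine gene kars-1 had CFP-1 scores of 72.7 and 83.0 at II positions 7072499 to 7072999 and 7072520 to 7073040, with H3K4me3 at 71.7 and 73.4. The next were mars-2, described above, and vars-1, a valine gene, with CFP-1 at 69.4 and 66.5 and H3K4me3 at 62.2 and 58.3. The mean CFP-1 ranks of kars-1, mars-2, vars-1 and mars-1 were 87.9, 86.2, 85.9 and 85.4, with SDs over the lists of 0.596, 0.218, 1.22 and 2.89, so mars-2, vars-1 and mars-1 do not differ beyond their spread.

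The weakest CFP-1 call was at dars-1, for aspartate, and it stood beside one of the strongest marks. CFP-1 scored 7.9 in RC03 and 10.1 in RC04, at III positions 9491114 to 9491339 and 9491141 to 9491334, while H3K4me3 scored 76.9 and 66.9 over 9490616 to 9492051 and 9490570 to 9491967. The mean rank of this gene was 40.8 for CFP-1 and 92.8 for H3K4me3, the widest gap between the antibodies in the family. The cytosolic leucine gene lars-1 followed, with CFP-1 at 11.6 and 14.1 and H3K4me3 at 33.6 and 54.2. For gars-1, the glycine gene, CFP-1 scored 18.1 and 15.5 and H3K4me3 28.9 and 37.6. Its peaks lay inside the gene, 330 and 446 bp from the end in the CFP-1 lists. The genes cars-1, for cysteine, with CFP-1 at 18.4 and 27.4, and iars-1, for isoleucine, with 25.7 and 22.6, completed the lowest 5. The iars-1 peak was near the limit of the rule, 435 and 477 bp outside the gene.

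The strongest mark lay at pars-2, for proline in mitochondria. H3K4me3 there scored 107.6 in RC03 and 97.1 in RC04, at I positions 12486380 to 12487448 and 12486544 to 12487363, a mean rank of 99.2, and CFP-1 scored 55.2 and 62.6. Its cytosolic counterpart pars-1 had no peak found in both lists, only RC03 peaks of weak score near 1 end, 2.42 for CFP-1 and 4.71 for H3K4me3. After pars-2 came yars-2, mars-2, kars-1 and dars-1 with mean H3K4me3 ranks of 93.2, 93.1, 93.0 and 92.8, whose SDs over the lists, 0.782 to 2.44, exceed the steps between them. At yars-2, the mitochondrial tyrosine gene, H3K4me3 scored 74.7 and 71.6, and CFP-1 scored 24.5 in RC03 and 50.3 in RC04, the largest rank SD of the called genes (9.04). The lowest mark lay at fars-2, for phenylalanine in mitochondria, where H3K4me3 scored 15.3 and 19.6 with a mean width of 450.5 bp and CFP-1 scored 45.6 and 40.2. Its CFP-1 rank of 77.7 was above its H3K4me3 rank of 70.0, whereas dars-1 had the opposite order. The next lowest marks were those of gars-1, cars-1, lars-1 and aars-2, with mean ranks of 78.3 to 82.8.

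**Figure D2:**
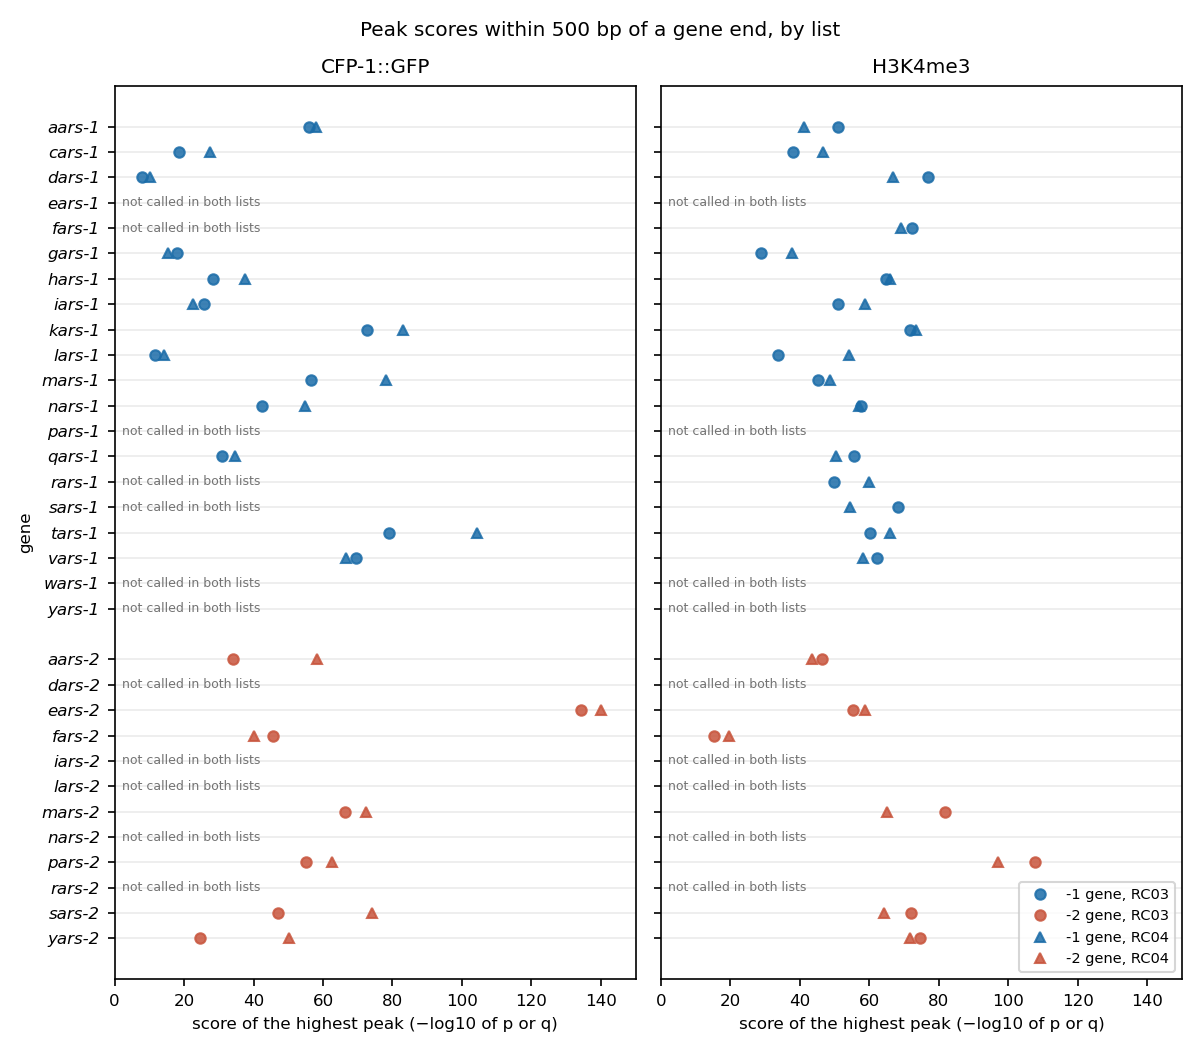
Score of the highest peak within 500 bp of the called gene end (horizontal axis, −log10 of the authors' p or q) for each of the 32 genes, with CFP-1::GFP on the left and H3K4me3 on the right. Circles are RC03 and triangles RC04; genes without a call in both lists carry no point, and ears-2 stands apart at 134.4 and 140.1 for CFP-1.

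Across the 20 members called with both antibodies, the 2 mean ranks had a Spearman rho of 0.40, and of 0.55 over the 4600 genes called with both in the table. Each rank came from the gene end where that antibody ranked higher, so the ends can differ, as at iars-1 and sars-2. The rho is a description across genes, which share the 4 lists and are not independent replicates. The remaining called members, hars-1 for histidine, nars-1 for asparagine, qars-1 for glutamine and sars-2 for serine in mitochondria, lay between these extremes. Their CFP-1 scores ran from 28.4 at hars-1 in RC03 to 74.1 at sars-2 in RC04, and their H3K4me3 scores from 50.5 at qars-1 in RC04 to 71.9 at sars-2 in RC03. At iars-1 and sars-2 these H3K4me3 values belong to the gene end opposite to the CFP-1 peak. At the CFP-1 end the mark scored 47.2 and 50.1 at iars-1 and 57.0 and 77.0 at sars-2.

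**Figure D3:**
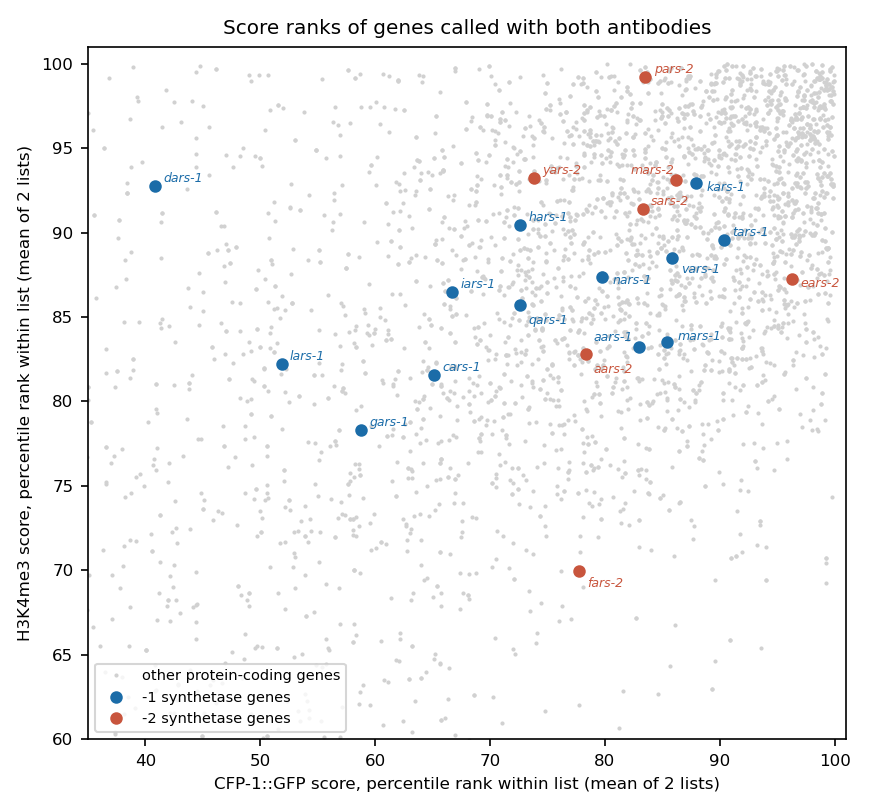
Percentile rank of the peak score within its list, as the mean of both lists, for CFP-1::GFP (horizontal axis) and H3K4me3 (vertical axis) at genes called with both antibodies. Each rank is from the gene end where that antibody ranked higher. The axes start at 35 and 60, which leaves 553 of the 4600 genes outside the plot but no synthetase gene; dars-1 stands out by a CFP-1 rank of 40.8 beside an H3K4me3 rank of 92.8.

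At the called end, a narrow CFP-1 peak usually sat inside a wider marked interval. The CFP-1 peak overlapped the H3K4me3 peak at all 20 genes in both lists and lay wholly inside it at 16 in RC03 and 17 in RC04. It reached past the mark at aars-1, fars-2 and sars-2 in both lists and at gars-1 in RC03. Both peaks were taken within 500 bp of the same end, which favours overlap. The share of overlap or enclosure over all gene ends was not counted, so these counts are not particular to the members. The midpoint of the CFP-1 peak was outside the gene at 17 of the 20 genes, with a median of -170.4 bp, where negative values lie outside the gene and positive ones inside. Over the 5277 gene ends called with both antibodies in the table, the median was -185 bp and 82.7% of the midpoints were outside. The H3K4me3 midpoint had a median of -97.4 bp at members and -139 bp over all these ends. It lay further into the gene than the CFP-1 midpoint at 14 of 20 members, against 57.2% of all ends. The largest step was 570 bp at sars-2, followed by 313 bp at mars-2, and at fars-2 the mark lay further out than CFP-1 (a step of -339 bp).

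**Figure D4:**
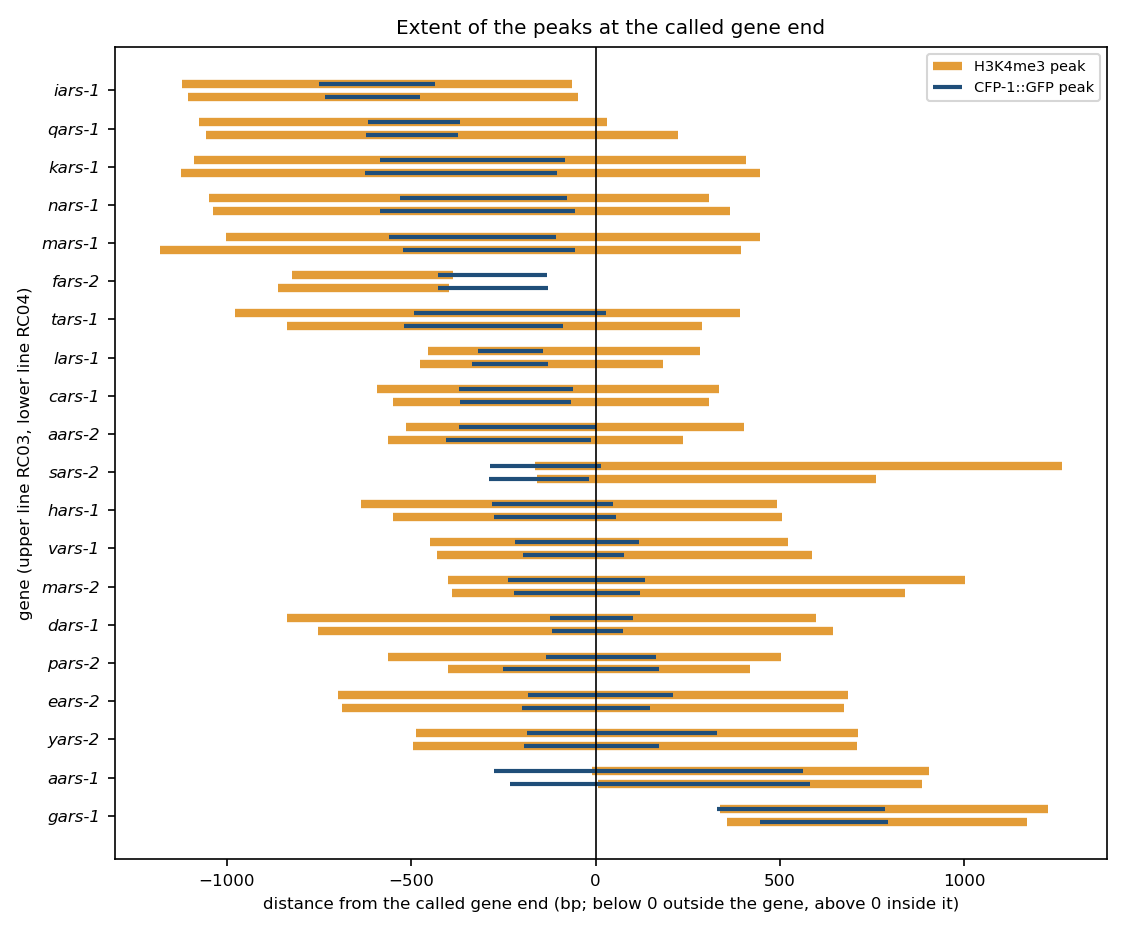
Extent of the H3K4me3 peak (wide bars) and the CFP-1::GFP peak (narrow bars) around the called gene end for the 20 genes with both antibodies, with RC03 above RC04 for each gene. The horizontal axis is the distance in bp from the gene end, below 0 outside the gene and above 0 inside it; 17 CFP-1 midpoints lie outside, and those of aars-1, gars-1 and yars-2 inside.

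A peak at a gene end can belong to a neighbour. The CFP-1 peak lay within 500 bp of an end of another protein-coding gene in both lists at 11 of the 20 called members (55.0%), and at 62.2% of all genes called with CFP-1. Such neighbours were ctr-9 at dars-1, miro-1 at yars-2, rga-1 at aars-1, uncp-18 at ears-2 and oma-2 at vars-1. At aars-2, cars-1, fars-2, kars-1, lars-1, mars-1 and tars-1 no other gene end lay that close to the CFP-1 peak in either list. At pars-2 and gars-1 one did in a single list. The H3K4me3 peak lay that close to an end of another gene in both lists at 18 of the 23 members with the mark. They include kars-1, beside kat-1, and mars-1, beside F58B3.6. The share over all genes was not counted for the mark. Which gene such a shared peak serves was not tested.

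The 3 genes with H3K4me3 and no CFP-1 call differed in how near CFP-1 was. At fars-1 the nearest region called in both CFP-1 lists began 835 bp from the gene end, at I positions 6215421 to 6215780, and scored 58.9 in RC03 and 71.4 in RC04. At rars-1, for arginine, it lay 884 bp away, at III positions 4918001 to 4918266, with scores of 40.6 and 22.1. In both cases the mark also began outside the gene, between 255 and 320 bp from its end in the single lists, next to T08B2.15 and rbm-5 at fars-1 and to rpb-8 and ula-1 at rars-1. These 2 genes became called with both antibodies when 1000 bp was allowed, which raised the count from 20 to 22. The share of all genes called at 1000 bp is not given here. At sars-1, for serine, the mark covered a gene end, with scores of 68.3 and 54.5, and CFP-1 was listed there in RC04 alone, with a score of 12.2.

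The 9 genes without either call were dars-2, ears-1, iars-2, lars-2, nars-2, pars-1, rars-2, wars-1 and yars-1, of which 5 carry the suffix -2. The nearest CFP-1 region of both lists was 927 bp from an end at iars-2 and 1265 bp at yars-1, and between 2094 bp and 9320 bp at the other 7. At ears-1, for glutamate, a CFP-1 region lay within the gene, at I positions 10338529 to 10338798 and 2094 bp from an end, with scores of 18.9 and 4.26, inside an H3K4me3 region with scores of 41.6 and 28.6. At yars-1, for tyrosine, a weak CFP-1 region lay within the gene at I positions 14478024 to 14478242, with scores of 6.84 and 6.08, and no H3K4me3 region did. The gene wars-1 was the most isolated, with CFP-1 9320 bp and H3K4me3 35376 bp from its ends.

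Many worm genes lie in operons, in which closely spaced genes on 1 strand are transcribed from the promoter of the first, so a downstream gene can lack a promoter of its own. All 12 members without a call of both antibodies overlapped or had another protein-coding gene within 500 bp, as did 17 of the 20 called members. Over the whole table this held for 64.6% of genes, with 77.1% of the genes called with both antibodies and 60.5% of those with neither. At 4 of the 12 (33.3%) the adjacent gene lay within 125 bp, the gap between rars-1 and rpb-8 and so chosen after the values were seen, and was called with both antibodies at its far end. This was so at 3 of the 20 called members (15.0%), and at 4.48% of all genes without and 6.46% of all genes with both antibodies. These shares also depend on how many genes had any gene within 125 bp. Such a gene was present at 9 of the 12 and at 10 of the 20 members. Over the table it was present at 2402 of 15371 genes without both antibodies, and called at its far end at 688. For genes with both antibodies it was present at 1184 of 4600, and called there at 297. At another 5 of the 12, dars-2, ears-1, nars-2, pars-1 and rars-2, the gene within 125 bp was not called with both antibodies at its far end. At C29H12.2, 120 bp from rars-2, that end had H3K4me3 scores of 37.5 and 40.4 and no CFP-1 peak. The leucine gene lars-2 lay 99 bp from ZK524.4, whose far end had CFP-1 scores of 50.2 and 50.8 and H3K4me3 scores of 45.3 and 57.1. The gene yars-1 lay 109 bp from mars-2, whose far end held the mars-2 peaks given above. The genes fars-1 and rars-1 lay 78 bp from T08B2.15 and 125 bp from rpb-8, and the far-end peaks of these neighbours are those described with them. On its other side, fars-1 lay 97 bp from mrpl-23, whose far end had CFP-1 scores of 9.99 and 10.3. Without strand, whether these neighbours share an operon was not tested.

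The members sat on the autosomes, with 10 on chromosome I, 4 on II, 6 on III, 8 on IV and 4 on V, and none on X. Both antibodies were called at 5 of the 10 on I, 3 of 4 on II, 3 of 6 on III, 7 of 8 on IV and 2 of 4 on V. The same shares over all genes were 33.9% on I, 23.3% on II, 34.2% on III, 21.4% on IV and 13.9% on V. On IV the exception was sars-1, which had the mark and CFP-1 in 1 list.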

How the data were processed

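Late embryos were crosslinked for 10 minutes in 1% formaldehyde and sonicated before immunoprecipitation and sequencing (per the labels' protocols). BWA alignment to ce10 and peak calling with MACS2 2.0.10 were done by the authors, per the submitters' processing notes, with 1 list per sample. The deposited score is a −log10 value of p or q. Not given in the sources used here are which of these it is, the control, how duplicates were handled, and the calling threshold. It rises with depth and peak width, so it was ranked within a list and never tested between lists.

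Members, gene ends and neighbours came from a RefSeq gene table of assembly WBcel235, which gives symbols, ends and no strand, sequence or product name. Distances mix its ends with ce10 peaks, so none of its coordinates are printed, and all ends were also moved by 100 bp. At each end the highest-scoring peak of each list within 500 bp was taken, a call needed both lists at that end, and a gene's values are those of its higher-ranked end. Regions merge peaks of both lists at 1 bp of overlap. The design assumed known starts; because the table has no strand, either end was used. All members are accounted for; named were those with the 5 highest and 5 lowest ranks per antibody, the uncalled genes and the pairs. The members, lists and rules were chosen with earlier results of these data known, and enzyme classes and neighbours were added after values were seen. Shares stand beside the percent of all genes called by the same rule, without a test. The look-up code was tested on simulated data. Software was Python 3.11.15 with pandas 2.3.3, numpy 2.4.6 and matplotlib 3.10.9.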

Additional observations from a re-analysis of the deposited data

How the results depend on the processing

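Of 104 values under alternative settings, 79 were unchanged, 22 moved and 3 changed sign; unchanged means a count within 1.5 times, or a shift smaller than the SD between lists. By this rule all counts of called members were unchanged except by a peak at both gene ends, added after the values were seen. That setting left 0 members with CFP-1, 4 with H3K4me3 and 0 with both (0 of the -1 and 0 of the -2 genes). Members with both antibodies fell from 20 to 16 at 250 bp and to 15 with peak midpoints within 500 bp. Those with H3K4me3 fell from 23 to 19 and 16, and those with CFP-1 from 20 to 17 and 18. The shares of all genes at these settings are not given here. With 1 list left out, 20 to 21 members had both antibodies. A 250 bp window raised the median CFP-1 rank from 79.0 to 83.0, and left-out lists gave 77.6 to 82.0. The median CFP-1 width of 360.2 bp was 389.5 bp for merged regions and 337 to 342 bp with a list left out, and that of H3K4me3 was 1208 bp for merged regions, 1202.5 bp at 250 bp, 1199 bp at 1000 bp and 1140 to 1145.5 bp with a list left out. The -1 minus -2 difference in CFP-1 rank was -1.9 at 250 bp and -3.7 at 1000 bp, and -9.9 to -8.8 with a list left out. In CFP-1 width it was -31.5 bp, -68.0 bp for merged regions and 33.5 bp at 250 bp. In H3K4me3 width it was -24.2 bp, -63.8 bp at 250 bp, -81.0 bp at 1000 bp, 33.5 bp for merged regions and -72.0 to 229.5 bp with a list left out. The cause of these shifts was not tested. Grouping by upstream gene on the same strand and by compartment in the product name was not run, as the table used has neither. Exchanging aars-1 and aars-2 changed no value, and it could not. Both genes were called with both antibodies, and their ranks and widths lay on the same side of each group median. The exchange therefore does not show how the results depend on suffix and compartment. With the list name as a replicate block, added after the values were seen, the RC03 lists of both antibodies alone gave 21 members with both (14 of the -1 and 7 of the -2 genes), and the RC04 lists alone also 21 (14 and 7); the labels do not say that a name marks a shared extract, and no paired test was run because the results have no test. Read depth is unknown, so weak binding cannot be told from none.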
